A study of Sus scrofa with 92 samples.

Results

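The SLC25 genes encode the carriers of the mitochondrial inner membrane, a family of related proteins that each exchange or import a particular set of small molecules. Every pig gene identifier whose symbol begins with SLC25A was taken as a member, which gave 32 of the 25322 gene identifiers measured. The name table holds 42 such identifiers. The 10 others, SLC25A6, SLC25A10, SLC25A11, SLC25A21, SLC25A28, SLC25A30, SLC25A33, SLC25A34, SLC25A36 and SLC25A41, were not analysed here. The rule used names and no measured value.

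The inner membrane is nearly impermeable to charged metabolites, so oxidative metabolism depends on these carriers. They bring in ADP, phosphate, fatty acyl carnitines, amino acids and cofactors, and they send out ATP, citrate, aspartate and ornithine or citrulline. In heart and skeletal muscle the family is best known for ADP/ATP and phosphate exchange, and in liver for its parts in the urea cycle, gluconeogenesis and lipid synthesis.

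RNA sequencing libraries came from pigs of 10 breeds, all 60 days old, with 1 library for each breed and tissue. The breeds were Tibetan wild boar, Rongchang, Piétrain, Meishan, Large White, Landrace, Jinhua, Hampshire, Berkshire and Bamei. The single tissues were heart, liver, kidney, subcutaneous adipose and ovary (9 breeds each), spleen, psoas major muscle and longissimus dorsi muscle (10 breeds each), and lung (8 breeds), and 9 further libraries were labelled as tissue mixtures. Tibetan wild boar gave only spleen and the muscles, and Rongchang gave no lung. The labels name no treatment, transgene or modified genotype, and they do not say whether a library held RNA of 1 animal or of several, whether the tissues of a breed came from the same animal, or what the mixtures contained. The replicates were therefore the breeds, and every p-value measures the spread between these libraries.

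Expression was deposited as FPKM, fragments per kilobase of transcript scaled to the mapped total, which is a level per length and so can be compared between genes. Total FPKM ran from 519075 to 2196138 per library, and 10175 to 14561 genes reached 1 FPKM. The absolute depth is unknown. Levels below are FPKM after median-ratio scaling between libraries, given as mean ± SD over breeds. Differences are on the log2(scaled FPKM + 1) scale, which understates the change of genes at low levels, and every fold below is on that scale. The scaling was computed anew for each comparison, so the level of a gene in a muscle differs between the account of all tissues and that of the paired muscles. Of the measured marker genes, 4 of 4 for heart muscle, 4 of 4 for kidney tubule, 4 of 4 for lung epithelium, 3 of 3 for ovary, 4 of 4 for fast fibre, 7 of 8 for hepatocytes and 3 of 4 for adipocytes stood above all other tissues in the tissue of that name. The hepatocyte exception was ALB, the albumin gene, listed at 0 in all 9 livers, which stood above all other tissues in adipose. Of the slow fibre markers, 2 stood highest in this way in heart and 2 in skeletal muscle. Of 5 erythroid markers, 3 did so in spleen, 1 in kidney and 1 in skeletal muscle. The counts were 3 of 4 leukocyte markers in spleen, 2 of 5 fibroblast markers in adipose and 0 of 3 endothelial markers. In bulk tissue, fewer cells of a type and less RNA per cell cannot be told apart.

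The first comparison asked which carriers marked a tissue. Psoas major and longissimus dorsi were joined as skeletal muscle, which left 8 tissue classes. That class held 20 libraries, 2 for each breed, and the fit took them as separate. Muscles of the same breed are not independent, so p-values against skeletal muscle may be too small. Its SD is over libraries. A gene was called for a class when its level exceeded that of each of the 7 other classes by more than 1 on the log2 scale and the largest of the 7 limma p-values, adjusted over all genes, was under 0.05. All 32 members passed the filter on low values, SLC25A31 only through its ovary libraries. The call was made for 7 of 32 members, beside 22.8% of the 17207 genes tested, so the members were called about as often as other genes. The same 7 were called with psoas major alone or longissimus dorsi alone as muscle. Liver took 3 members (4.52% of all genes were called there), ovary 2 (6.04%), spleen 1 (2.66%) and subcutaneous adipose 1 (1.67%). No member was called in heart (1.28%), lung (1.73%), kidney (2.77%) or skeletal muscle (2.17%) by this limma fit. In those 4 classes no member passed at an unadjusted p under 0.05 with a difference above 1 either. Without the requirement on size, 23 of 32 members (71.9%) stood above every other class, beside 59.8% of all genes. The counts of 7 and 23 members, and those of 2 in ovary, hold SLC25A31, whose entry is a description with no test. Of those 23, 11 were in liver (9.03% of all genes tested stood highest there in this way), 4 in kidney (6.42%), 2 in spleen (8.74%), 2 in ovary (16.6%), 2 in adipose (4.08%), 1 in heart (3.73%) and 1 in skeletal muscle (6.46%). In lung there was none (4.74%), and 1 at an unadjusted p under 0.05.

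Liver was the class with the highest mean log2 level for 13 of 32 members (40.6%), beside 13.1% of all genes tested. Ovary was the top class for 5 members (15.6%), beside 23.3% of all genes. Kidney was highest for 5 members (15.6%, all genes 11.8%) and heart for 3 (9.4%, all genes 7.82%). Spleen (all genes 15.4%) and adipose (all genes 7.68%) were highest for 2 members each (6.25%). Lung (all genes 10.3%) and skeletal muscle (all genes 10.6%) were highest for 1 each (3.1%). The members' median range over the 8 classes was 2.40 on the log2 scale, beside 1.74 for all genes. SLC25A14, SLC25A40, SLC25A42 and SLC25A43 were among the members that ranged by less than 1 across the classes, as 3533 of the 17207 genes tested did.

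**Figure D1:**
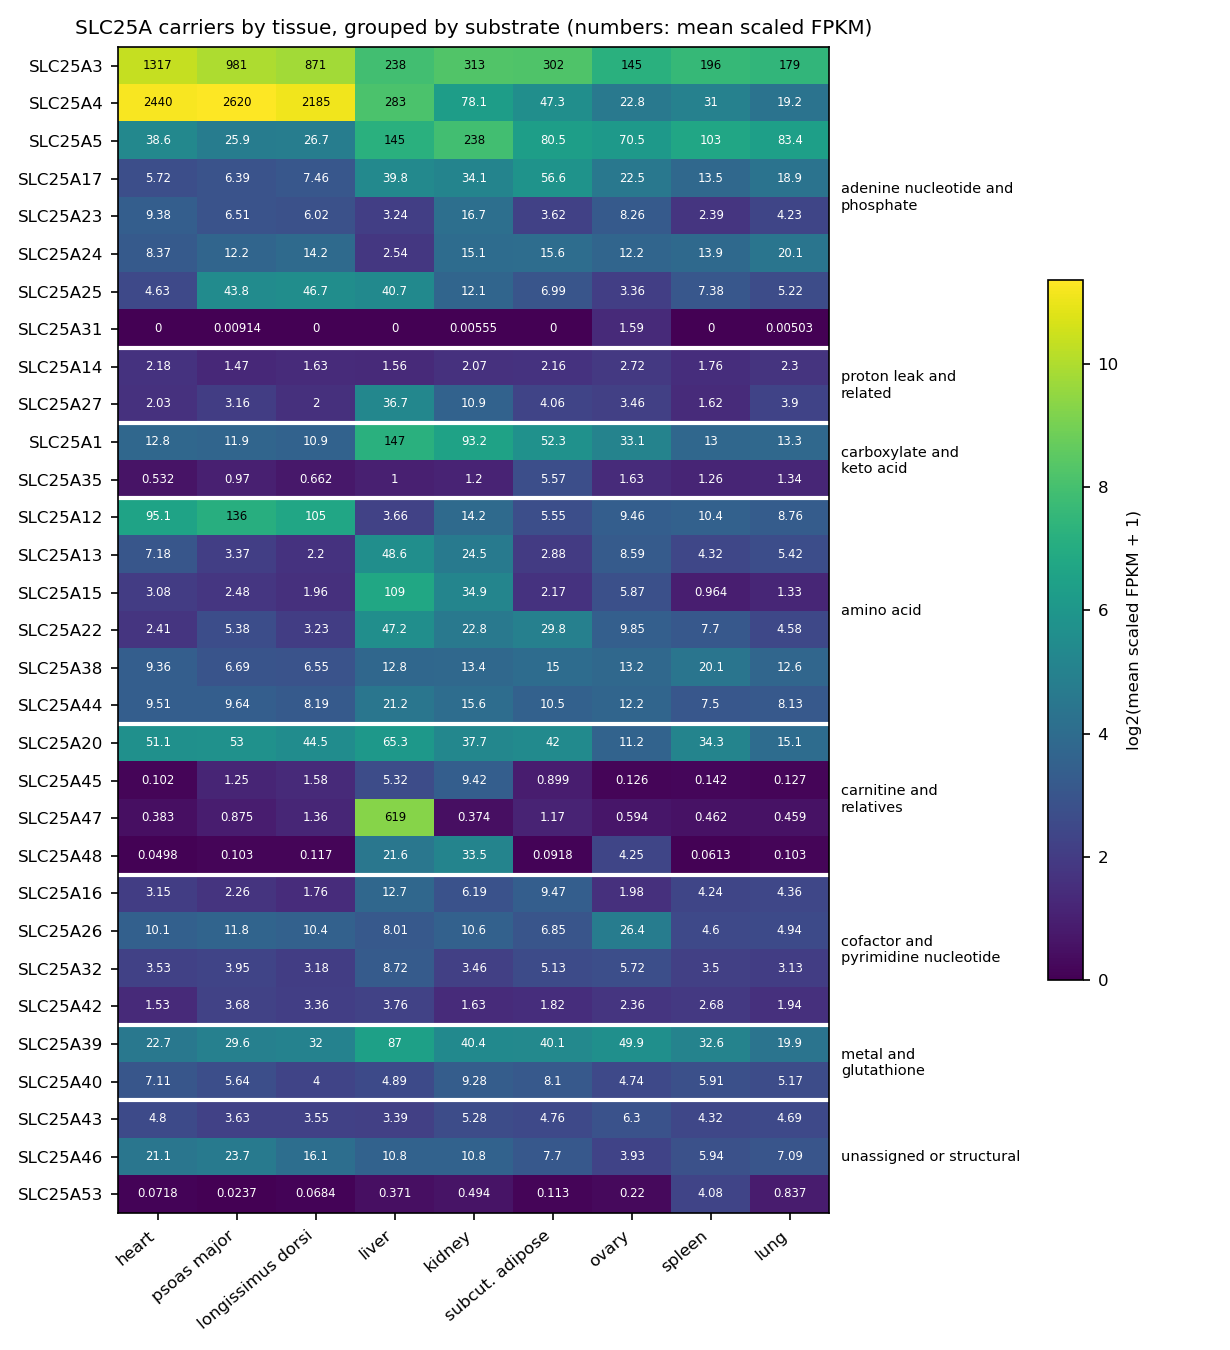
Mean scaled FPKM over breeds (numbers in the cells, colour as log2 of the mean + 1, brighter is higher) of the SLC25A members, all but 1 of which are shown, listed down the side by what they carry, in the 9 single tissues. SLC25A3 and SLC25A4 are brightest in heart and both muscles, SLC25A47 stands out in liver, and SLC25A31 shows a level only in ovary apart from 3 libraries under 0.1 FPKM.

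The carriers of adenine nucleotides and phosphate held the highest levels of the family. SLC25A4, the ADP/ATP carrier of heart and muscle, ranged from 1965 to 3248 in the 9 hearts with a median of 2259. In psoas major it ranged from 1821 to 3759 with a median of 2498, and in longissimus dorsi from 1527 to 2982 with a median of 2123. Heart and skeletal muscle overlapped for SLC25A4 and did not pass the test against each other, with a log2 difference of 0.04 and an adjusted p of 0.887. Liver followed at 283 ± 87.1 (SD, n = 9), 3.13 below skeletal muscle on the log2 scale. Next came kidney (78.1), adipose (47.3), spleen (31.0), ovary (22.8) and lung (19.2), of which only the neighbours ovary and lung did not pass the test against each other (adjusted p = 0.175).

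SLC25A3, which imports the phosphate used for ATP synthesis, had the same 2 leading tissues, with a wider gap between them. Its level was 1317 ± 105 in heart (SD, n = 9), 981 ± 152 in psoas major (SD, n = 10) and 871 ± 108 in longissimus dorsi (SD, n = 10). Heart exceeded skeletal muscle by 0.53 (SE 0.06; adjusted p 5.41e-12), although the highest psoas library, Jinhua at 1337, lay above the lowest heart, Large White at 1182. Every other tissue was between 145 (ovary) and 313 (kidney). SLC25A3 was the most abundant member in spleen, lung, kidney, adipose and ovary, and SLC25A4 was in heart and both muscles.

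SLC25A5, the ADP/ATP carrier of many tissues, ran the other way. It was highest in kidney at 238 ± 29.1 (SD, n = 9), 0.76 above liver (adjusted p 0.000104), and lowest in skeletal muscle at 26.3 ± 10.3 (SD, n = 20). As a share of the summed level of the ADP/ATP carriers measured, SLC25A4 made up 98.4% ± 0.441 in heart, 99.0% ± 0.387 in psoas major and 98.7% ± 0.568 in longissimus dorsi. The share was 65.3% ± 12.2 in liver, where the libraries spread from 34.8% to 74.9%, and 35.6% ± 13.1 in adipose. It was 24.7% in kidney, 24.5% in ovary, 23.3% in spleen and 18.8% in lung. SLC25A6, a further ADP/ATP carrier, is not in these shares.

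SLC25A31, the ADP/ATP carrier known from germ cells, was called in ovary. Its level there ranged from 0.546 (Meishan) to 2.08 (Berkshire) with a median of 1.76. It was listed at 0 in every other library except lung of Bamei at 0.0402, kidney of Large White at 0.050 and psoas major of Jinhua at 0.0914. All 9 ovaries lay above those 3 libraries. It reached 1 FPKM in 8 libraries, all of them ovary, so it passed the filter only through the class it was called for, and the call is given as a description with no test. The gene supplied 1.68% of the ADP/ATP carrier level in ovary.

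The ATP-Mg/phosphate carriers move adenine nucleotides under the control of calcium, and their leading member changed from tissue to tissue. SLC25A25 supplied 85.9% ± 5.50 of the summed level of the 3 in liver, 65.9% ± 13.3 in longissimus dorsi and 61.5% ± 18.6 in psoas major. SLC25A24 supplied 68.1% ± 4.82 in lung, 59.6% ± 8.95 in adipose and 58.8% ± 4.11 in spleen. In heart SLC25A23 supplied 42.1% ± 8.85 and SLC25A24 37.8% ± 7.58. In kidney they supplied 38.3% ± 4.94 and 34.6% ± 5.03, and their ranges overlapped in both tissues. The level of SLC25A23 in kidney, 16.7 ± 1.56, exceeded all other classes by at least 0.79 on the log2 scale (adjusted p 2.84e-09). SLC25A25 varied widely between breeds in muscle. In psoas major it ran from 4.15 in Jinhua to 112 in Piétrain with a median of 39.6, and in longissimus dorsi from 6.43 in Jinhua to 98.3 in Tibetan wild boar with a median of 44.0. SLC25A17, a peroxisomal carrier of adenine nucleotides and coenzyme A, was highest in adipose at 56.6 ± 13.7, 0.48 above liver at 39.8 ± 7.19 (adjusted p 0.00939), and lowest in heart at 5.72 ± 1.25.

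**Figure D2:**
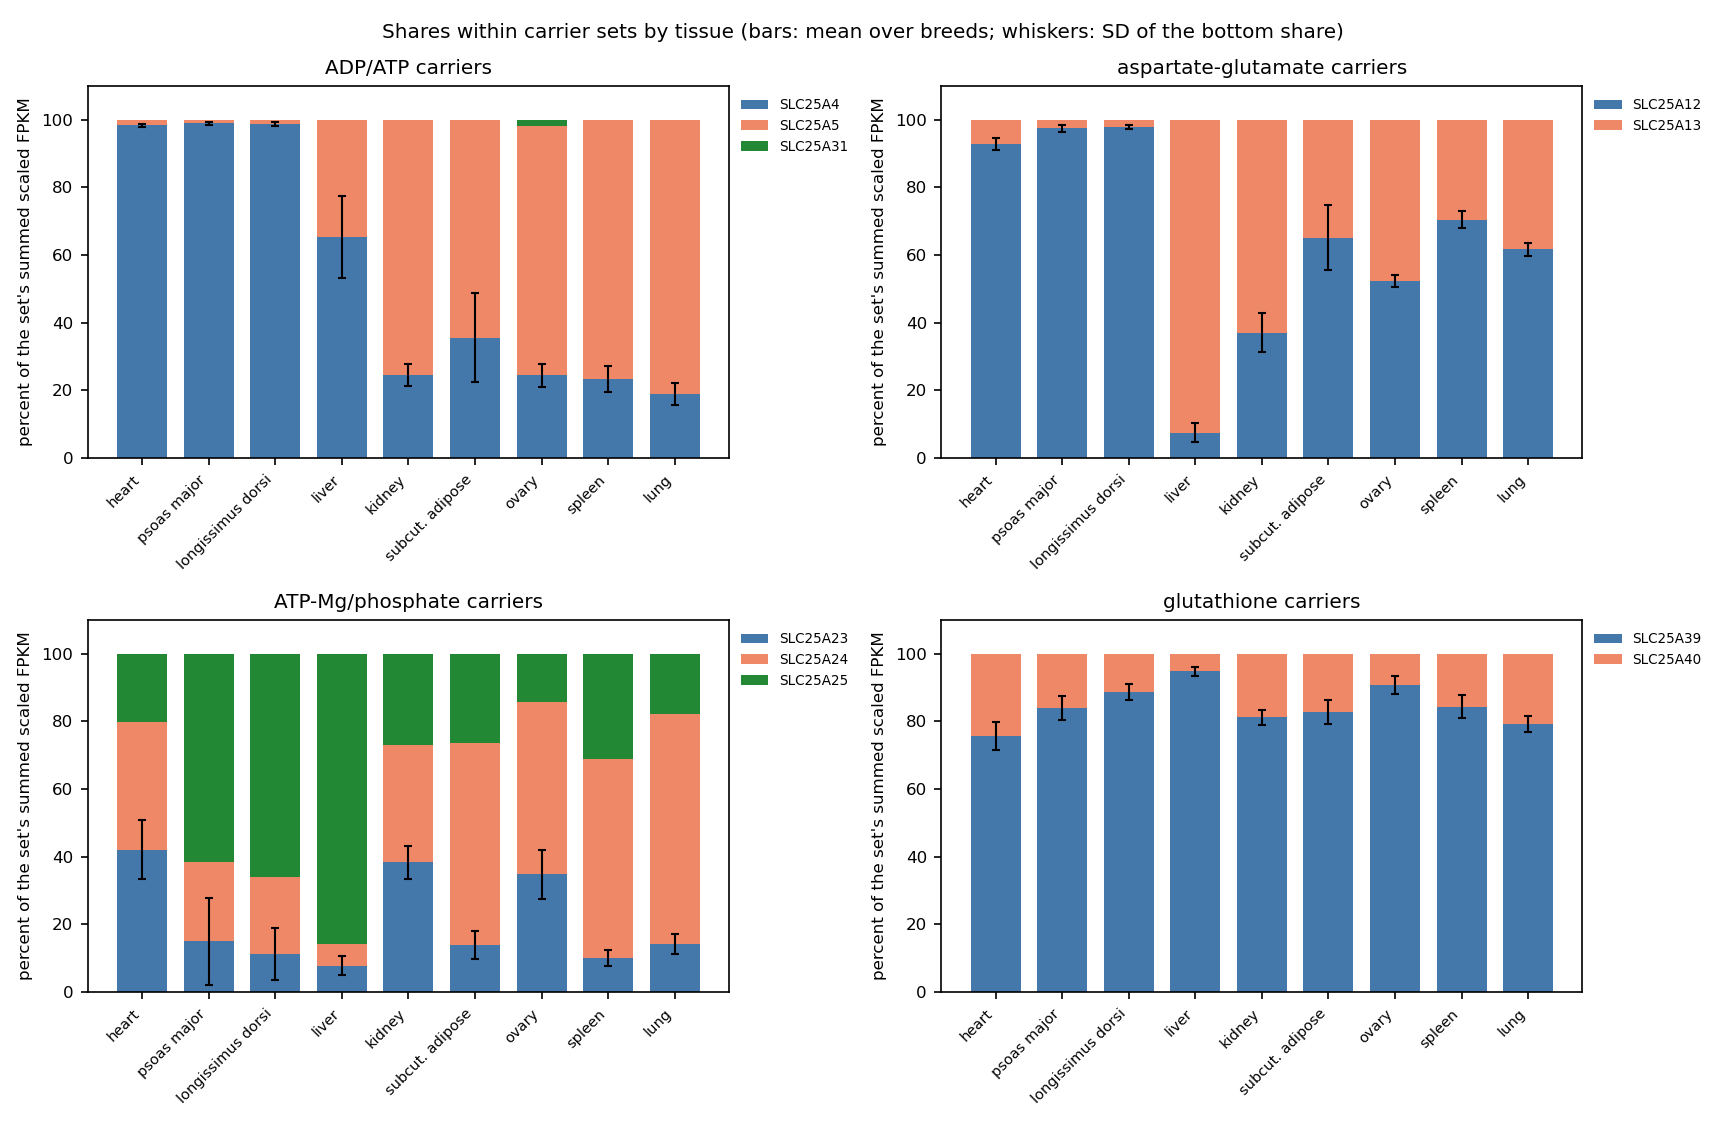
Share of each member in the summed scaled FPKM of its carrier set (vertical axis, percent), by tissue (horizontal axis), with bars as means over breeds and whiskers as the SD of the bottom share. SLC25A4 fills 98.4% to 99.0% of the ADP/ATP set in heart and both muscles, and SLC25A12 falls to 7.55% of the aspartate-glutamate set in liver.

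The aspartate-glutamate carriers export aspartate for the malate-aspartate shuttle and, in liver, for urea synthesis. SLC25A12 had its highest levels in muscle and heart, with 136 ± 35.6 in psoas major (SD, n = 10), 105 ± 25.5 in longissimus dorsi (SD, n = 10) and 95.1 ± 19.4 in heart (SD, n = 9). Skeletal muscle exceeded heart by 0.32 with overlap, in a fit that took both muscles of a breed as separate libraries. No other tissue library came above 16.5, the kidney of Landrace. SLC25A13 was the form of liver at 48.6 ± 12.8 and of kidney at 24.5 ± 4.92, and liver exceeded kidney by 0.93 (adjusted p 6.11e-09). The highest kidney, Hampshire at 36.8, lay above the lowest liver, Berkshire at 31.0. SLC25A12 made up 97.5% ± 1.04 of the summed level of both in psoas major and 7.55% ± 2.69 in liver, with kidney at 37.1% ± 5.70 and ovary at 52.3% ± 1.86. It was also the larger part in spleen (70.5% ± 2.41), adipose (65.2% ± 9.54) and lung (61.7% ± 1.99), at low levels.

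SLC25A15 exchanges ornithine and citrulline across the inner membrane for the urea cycle. It was called in liver, where it ranged from 60.1 (Berkshire) to 151 (Rongchang) with a median of 118. Kidney was next, from 24.3 to 50.7 with a median of 33.0, and all 9 livers lay above all 9 kidneys. The difference was 1.60 (SE 0.14), a 3.02-fold ratio, with an adjusted p of 1.16e-15. On FPKM as deposited the smallest difference was 0.93 and after quantile normalization 0.97, which ended the call on size. In liver the enzymes of the same cycle were called as well, 5 of the 6 listed. CPS1, which makes carbamoyl phosphate, stood at 468 ± 182 in liver, and OTC, which joins it to ornithine, at 208 ± 39.9.

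None of the remaining amino acid carriers was called for a class. SLC25A22, a glutamate importer, was at 47.2 ± 15.5 in liver, 29.8 ± 10.7 in adipose and 22.8 ± 8.75 in kidney, and at 2.41 ± 0.521 in heart. Liver exceeded adipose by 0.66 (adjusted p 0.000362). SLC25A44, which carries branched-chain amino acids, was at 21.2 ± 3.91 in liver and 15.6 ± 1.78 in kidney, a difference of 0.41 (adjusted p 0.000375). SLC25A38, the glycine importer that feeds haem synthesis, was highest in spleen at 20.1 ± 4.93, 0.40 above adipose (adjusted p 0.00132), and lowest in the muscles at 6.69 ± 1.76 in psoas major and 6.55 ± 1.35 in longissimus dorsi. SLC25A38 was not called there, as the difference was under the size required. Of the 9 genes measured for haem synthesis, 1, the erythroid ALAS2, was called in spleen and 2, ALAS1 and CPOX, in liver.

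The carriers grouped with carnitine transport included the member with the largest contrast. SLC25A47, a carrier known from liver, ranged there from 112 in Rongchang to 1479 in Jinhua, around a median of 445, and averaged 619 ± 445 (SD, n = 9). No library of any other tissue exceeded 3.59, the longissimus dorsi of Piétrain. The difference from adipose, the nearest class at 1.17 ± 0.730, was 7.87 (SE 0.23; adjusted p 2.16e-43), a 234-fold ratio. It was the most abundant member in liver on average, ahead of SLC25A4 at 283. SLC25A47 was also the only member called when a difference above 2 was required. In the same liver libraries the 8 hepatocyte markers summed to between 32459 and 63964.

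SLC25A20, which exchanges carnitine for acyl carnitines, was measured at 10 FPKM or more on average in every tissue. Liver stood at 65.3 ± 16.8, psoas major at 53.0 ± 13.7, heart at 51.1 ± 11.8, longissimus dorsi at 44.5 ± 9.56 and adipose at 42.0 ± 10.5. Liver exceeded heart by 0.34 (adjusted p 0.0284) with overlap. Ovary at 11.2 ± 1.25 and lung at 15.1 ± 0.585 were the lowest. SLC25A48, a choline importer, was a kidney and liver gene, at 33.5 ± 5.41 in kidney, 21.6 ± 11.9 in liver and 4.25 ± 2.15 in ovary. In the other tissues its highest library was 0.274, the longissimus dorsi of Piétrain. SLC25A45 had the same leading tissues at lower levels, 9.42 ± 2.33 in kidney and 5.32 ± 2.86 in liver. Kidney exceeded liver by 0.79 for SLC25A48 (adjusted p 6.26e-05) and by 0.87 for SLC25A45 (adjusted p 0.000178). On FPKM as deposited SLC25A5, SLC25A45 and SLC25A48 were called in kidney.

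**Figure D3:**
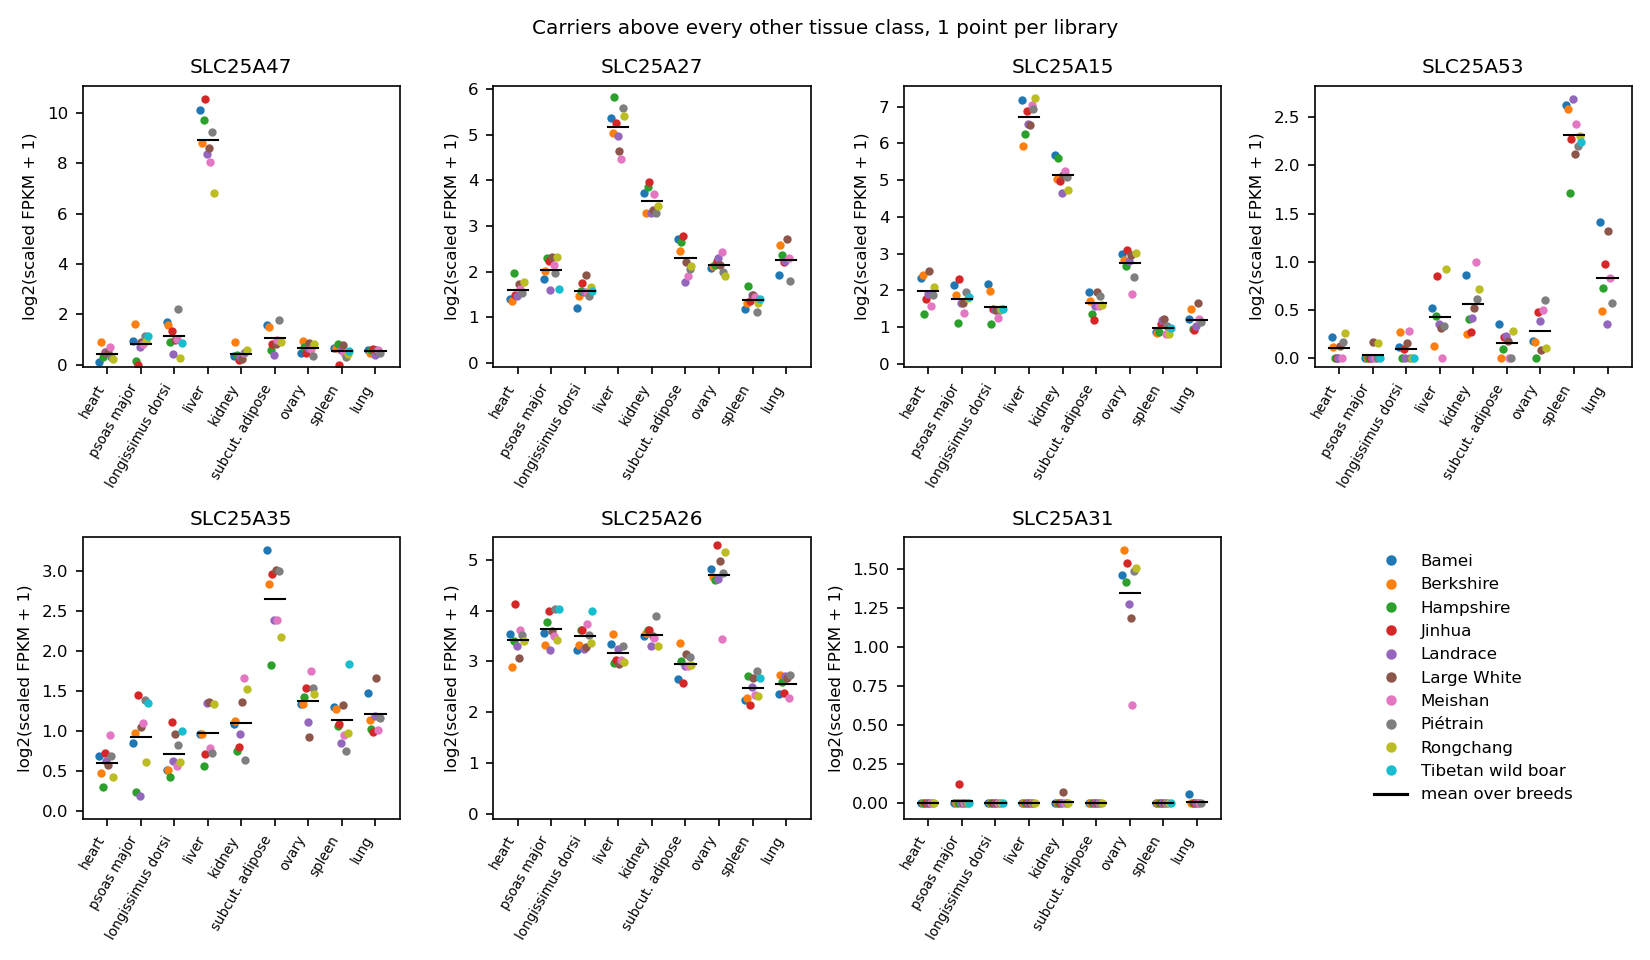
Levels in scaled FPKM (vertical axis, log2 of value + 1) of the 7 members called for a tissue class, with 1 point for each breed in each of the 9 tissues (horizontal axis). The liver points of SLC25A47, between 112 and 1479, stand apart from all others, while the lowest ovary point of SLC25A26, 9.91, lies among the other tissues.

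The proton carriers gave the third liver call. SLC25A27, also known as uncoupling protein 4 and studied mainly in brain, ranged from 21.3 (Meishan) to 56.0 (Hampshire) in liver with a median of 37.3. Kidney ranged from 8.72 to 14.7 with a median of 9.88, so the tissues did not overlap. The difference was 1.63 (SE 0.13), a 3.10-fold ratio, with an adjusted p of 1.51e-17. It was 0.99 on FPKM as deposited, just under the size required. SLC25A14, its relative, varied little, from 1.47 ± 0.821 in psoas major to 2.72 ± 0.529 in ovary.

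The carboxylate carriers had their highest levels in liver or adipose. SLC25A1, the citrate exporter that supplies carbon for fatty acid and sterol synthesis, was at 147 ± 36.9 in liver, 93.2 ± 21.1 in kidney and 52.3 ± 26.8 in adipose. Liver exceeded kidney by 0.63 (adjusted p 0.00233). Heart, spleen, lung and both muscles had means from 10.9 to 13.3. SLC25A35 was called in adipose, where it ran from 2.54 in Hampshire to 8.61 in Bamei with a median of 6.13. Ovary, the nearest class, reached 2.37 at most, and 1 spleen, Tibetan wild boar at 2.57, lay above the lowest adipose library. The difference was 1.27 (SE 0.14), a 2.41-fold ratio, with an adjusted p of 1.15e-11, and it was 0.94 on FPKM as deposited. FASN and ME1, which make fatty acids and the NADPH for them, were called in adipose as well, 2 of the 5 genes listed for citrate use and lipogenesis.

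The cofactor carriers were expressed at lower levels. SLC25A26, which imports S-adenosylmethionine for methylation within mitochondria, was called in ovary, where it ran from 9.91 in Meishan to 38.0 in Jinhua with a median of 25.9. Skeletal muscle was next at 11.1 ± 2.45 (SD, n = 20). The difference was 1.17 (SE 0.11), a 2.26-fold ratio, with an adjusted p of 3.44e-12, and only the ovary of Meishan overlapped the other tissues. The call ended, at 0.96, when the scaling rested on genes above 0 in every library, a setting chosen after seeing the data. SLC25A32, a folate and flavin carrier, was highest in liver at 8.72 ± 2.62, 0.53 above ovary (adjusted p 0.000160). SLC25A16 was highest in liver at 12.7 ± 1.97, 0.42 above adipose at 9.47 ± 2.77 (adjusted p 0.0107). SLC25A42, a coenzyme A carrier, had means from 1.53 in heart to 3.77 in liver.

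The glutathione carriers SLC25A39 and SLC25A40 did not share a leading tissue. SLC25A39 was at 87.0 ± 14.2 in liver, 0.83 above ovary at 49.9 ± 14.6 (adjusted p 4.75e-08), while SLC25A40 was at 4.89 ± 1.94 in liver and 9.28 ± 1.24 in kidney. For SLC25A40 kidney did not pass the limma test against adipose at 8.10 ± 1.02, a difference of 0.17 (adjusted p 0.182). SLC25A39 made up 94.8% ± 1.31 of the summed level of both in liver and 75.7% ± 4.18 in heart, the extremes among the tissues. SLC25A46, a family member of the outer membrane that acts in mitochondrial fusion and fission, was highest in psoas major at 23.7 ± 4.49 and heart at 21.1 ± 2.74 and lowest in ovary at 3.93 ± 0.460. SLC25A53, a carrier with no assigned substrate here, was called in spleen. It ranged there from 2.27 (Hampshire) to 5.46 (Landrace) with a median of 3.89, above every library of lung, whose highest was 1.66. The difference was 1.48 (SE 0.10), a 2.79-fold ratio, with an adjusted p of 3.40e-20. SLC25A43 varied little, from 3.39 ± 0.661 in liver to 6.30 ± 1.23 in ovary. It neighbours SLC25A5 in the RefSeq gene order of the Sscrofa11.1 assembly, and the counting at neighbouring or overlapping genes is not given in the sources used here.

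Summed over the 32 members, the level was 4099 ± 535 in heart, 4020 ± 840 in psoas major, 3425 ± 612 in longissimus dorsi and 2034 ± 532 in liver. It was 1111 ± 78.6 in kidney, 775 ± 79.5 in adipose, 541 ± 21.4 in spleen, 510 ± 55.2 in ovary and 461 ± 17.4 in lung. SLC25A3, SLC25A4 and SLC25A5 together supplied 92.6% of it in heart, 90.0% in psoas major and 89.7% in longissimus dorsi, but 34.1% in liver, where SLC25A47 led. Kidney (56.7%), adipose (55.5%), spleen (60.9%), lung (61.0%) and ovary (46.9%) lay between.

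The second comparison set psoas major, a deep loin muscle, against longissimus dorsi, the long back muscle, within each of the 10 breeds. Of the 32 members, 28 passed the filter on low values, and SLC25A31, SLC25A35, SLC25A48 and SLC25A53 did not. The limma fit called 9 of 28 members higher in psoas major, beside 13.7% of the 12112 genes tested, and 1 of 28 lower, beside 14.2%. The other 18 were not called. Among all genes the calls were even, 1657 higher and 1719 lower, and on FPKM as deposited they became 1122 higher and 1802 lower. The members' calls stayed at 9 and 1 under that setting. The members' median difference was 0.14, beside -0.005 for all genes, and 21 of 28 members (75%) lay above 0, beside 49.1% of all genes. The muscles overlapped for every member called.

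SLC25A46 and SLC25A22 had the largest differences, about equal at 0.53 each, and their order changed with the settings. SLC25A46 ranged from 13.3 to 24.2 in psoas major with a median of 16.0, and from 6.88 to 13.7 in longissimus dorsi with a median of 11.3. Only the top of the longissimus range reached the bottom of the psoas range. The difference was 0.53 (SE 0.08), a 1.45-fold ratio, higher in 10 of 10 breeds with an adjusted p of 0.000760.

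Of the amino acid carriers tested, 3 were called higher in psoas major. SLC25A22 ran from 2.07 to 6.52 in psoas major (median 3.31) and from 1.53 to 3.06 in longissimus dorsi (median 2.14), a difference of 0.53 (SE 0.09) seen in 10 of 10 breeds (adjusted p 0.00167). SLC25A12 ran from 42.9 to 139 in psoas major (median 91.2) and from 47.4 to 97.2 in longissimus dorsi (median 68.2), a difference of 0.36 (SE 0.08) seen in 9 of 10 breeds (adjusted p 0.00473). The muscles overlapped over most of their range for SLC25A12, and it was not called without the breed block. SLC25A13 ran from 1.37 to 5.10 in psoas major (median 1.92) and from 0.832 to 1.92 in longissimus dorsi (median 1.46), a difference of 0.36 (SE 0.11) seen in 8 of 10 breeds (adjusted p 0.0336). The call of SLC25A13 did not survive leaving out Bamei (adjusted p 0.0706), Piétrain (0.0627), Hampshire (0.0573), Landrace (0.0570), Jinhua (0.0558) or Berkshire (0.0512).

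SLC25A27 ran from 1.39 to 2.72 in psoas major (median 2.21) and from 0.896 to 1.88 in longissimus dorsi (median 1.34). It differed by 0.41 (SE 0.07), a 1.33-fold ratio, higher in 10 of 10 breeds (adjusted p 0.00127). SLC25A40, the less abundant glutathione carrier, ran from 2.82 to 5.49 in psoas major (median 3.83) and from 1.98 to 3.52 in longissimus dorsi (median 2.67). It differed by 0.39 (SE 0.07), higher in 9 of 10 breeds (adjusted p 0.00141). SLC25A39 was not called, at -0.08. SLC25A39 supplied 83.9% ± 3.54 of the summed glutathione carrier level in psoas major and 88.7% ± 2.28 in longissimus dorsi. That share was lower in psoas major in 10 of 10 breeds by 4.87 percentage points on average (difference -4.87 ± 2.78; exact paired sign-flip permutation test, two-sided, p = 0.00195, the smallest these 10 pairs can give, and 0.0156 after Benjamini-Hochberg adjustment over 8 shares).

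SLC25A20, the carnitine-acylcarnitine carrier, ran from 22.1 to 58.2 in psoas major (median 34.6) and from 18.6 to 39.5 in longissimus dorsi (median 30.3). The difference was small, 0.25 (SE 0.06), a 1.19-fold ratio, and it had the same direction in 10 of 10 breeds (adjusted p 0.00926). SLC25A32 and SLC25A16 differed by 0.22 (SE 0.06; adjusted p 0.0155) and 0.21 (SE 0.06; adjusted p 0.0167), each higher in 10 of 10 breeds. Their levels were low. SLC25A32 had medians of 2.67 in psoas major and 2.06 in longissimus dorsi, and SLC25A16 had medians of 1.58 and 1.18. SLC25A17, the peroxisomal carrier, was the only member called lower. It ran from 1.98 to 7.86 in psoas major (median 4.38) and from 2.27 to 8.19 in longissimus dorsi (median 5.14), a difference of -0.18 (SE 0.05) with the same direction in 10 of 10 breeds (adjusted p 0.0198).

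The most abundant members were not called with the scaling used here. SLC25A4 was higher in psoas major in 8 of 10 breeds by 0.27 (SE 0.10), with an adjusted p of 0.0637, and reached 0.0168 without Hampshire. SLC25A3 differed by 0.18 (adjusted p 0.104). Both depended on the scaling. After quantile normalization SLC25A4 differed by 0.49 (adjusted p 0.0106) and SLC25A3 by 0.41 (adjusted p 0.00611), and with scaling on genes at 5 FPKM or more by 0.31 (adjusted p 0.0285) and 0.22 (adjusted p 0.0391), all past the threshold. SLC25A25 and SLC25A24 had differences of -0.27 (adjusted p 0.341) and -0.19 (adjusted p 0.351), and Piétrain stood apart from the other breeds for both. Without that breed the difference of SLC25A25 was -0.44 (SE 0.13; adjusted p 0.0274), which passed as lower in psoas major, and that of SLC25A24 was -0.05 (adjusted p 0.701). None of the 7 other shares within carrier sets passed the adjusted threshold between the muscles by the exact permutation test, and 3 had an unadjusted p under 0.05. SLC25A4's share of the ADP/ATP set was 0.230 percentage points higher in psoas major and SLC25A5's 0.230 lower (difference -0.230), each with an adjusted exact p of 0.0859. These shares mirror each other, since SLC25A31 supplied almost none of the set, so they are not separate results.

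**Figure D4:**
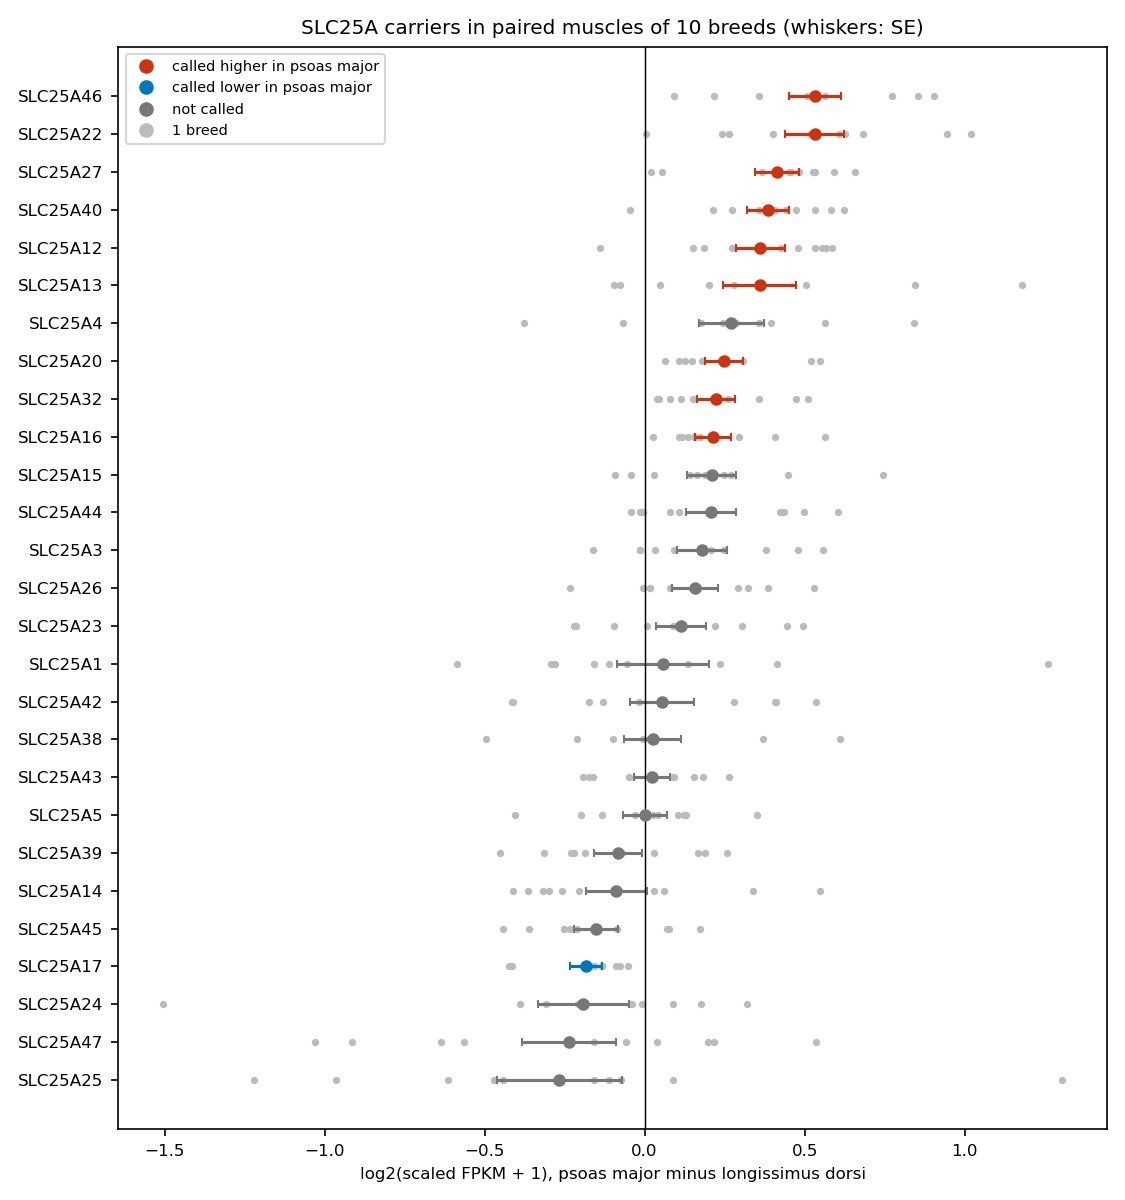
Difference in log2(scaled FPKM + 1), psoas major minus longissimus dorsi (horizontal axis), for the members tested, all but 1 of which are shown, with small points for the 10 breeds, large points for the fitted difference and whiskers for its SE. Of the large points, 9 are called above 0 and SLC25A17 is called below 0. Piétrain is the lone point at 1.30 for SLC25A25 and at -1.50 for SLC25A24.

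Other genes of the pathways that the carriers serve were read against the same background of 13.7% higher and 14.2% lower. Of the malate-aspartate shuttle enzymes, which work with SLC25A12 and SLC25A13, 3 of 3 tested were higher in psoas major, with a median of 0.65: MDH1 by 0.75 (adjusted p 0.000919), GOT1 by 0.65 (adjusted p 0.00401) and MDH2 by 0.21 (adjusted p 0.0257). In the tricarboxylic acid cycle 8 of 15 were higher with a median of 0.26, and by limma 0 were lower at an adjusted or an unadjusted p under 0.05. The largest were SDHC, a subunit of succinate dehydrogenase, at 0.50 and DLD, shared by several keto acid dehydrogenases, at 0.42. In the carnitine shuttle, which works with SLC25A20, 2 of 4 were higher. These were CPT2, which removes the carnitine, by 0.64 (adjusted p 0.00137) and CPT1B, which attaches it in muscle, by 0.54 (adjusted p 0.00456). CRAT, of the same list, was not called at -0.15, but was lower in 9 of 10 breeds with an unadjusted limma p of 0.0182.

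Of the creatine kinases and ATP synthase subunits, users and suppliers of the ATP that SLC25A4 carries, 3 of 4 were higher with a median of 0.31. CKMT2, the mitochondrial creatine kinase of muscle, differed by 0.57 (adjusted p 0.0311). VDAC1, the main channel of the outer membrane, was higher by 0.23 (adjusted p 0.0190; 1 of 2 channels), and MPC2, a subunit of the pyruvate carrier, by 0.29 (adjusted p 0.0236; 1 of 1). Of the regulators of mitochondrial content 2 of 7 were higher, PPARA by 0.74 and ESRRA by 0.51, and 1 was lower only at an unadjusted limma p under 0.05. The haem synthesis list split, with 2 of 9 higher (CPOX 0.56, ALAS1 0.34) and 2 of 9 lower (FECH -0.23, UROS -0.22). FASN was the 1 of 5 genes of lipogenesis that was lower, at -0.52. By limma no gene of 3 was called among family members under other symbols, UCP2, UCP3 and MTCH1, of which 1 was lower at an unadjusted p under 0.05. The same held for 3 one-carbon genes, with 1 lower unadjusted, and for 2 urea cycle genes, with 0 unadjusted. UCP3, the uncoupling protein of muscle, stood at 73.6 ± 26.9 in psoas major and 85.8 ± 25.7 in longissimus dorsi with the scaling over all tissues.

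Of the markers of fibre types and other cells, those of fast fibres, adipocytes, fibroblasts and hepatocytes were mostly lower in psoas major. The other lists had at most 1 gene called in a direction. Among all genes tested 13.7% were higher and 14.2% lower. Fast fibre markers were lower in psoas major for 4 of 4 genes with a median of -0.56, and their summed level ran from 14042 to 47166 there and from 20171 to 74521 in longissimus dorsi. Of the slow fibre markers 1 of 4, MYL3, was called higher, and the median was 0.32. Their sum ran from 5149 to 15101 in psoas major and from 4075 to 11675 in longissimus dorsi. Adipocyte markers were lower for 3 of 4 genes (sum 65.1 to 157 in psoas major, 104 to 229 in longissimus dorsi), and fibroblast markers for 4 of 5 (412 to 1326 and 643 to 2038). Hepatocyte markers were lower for 7 of 8 (10.7 to 33.4 and 15.1 to 217). None of those listed was at 0 in every library of the pair. Endothelial markers were higher for 1 of 3 genes tested and erythroid markers for 1 of 4, with 0 lower in either list. Leukocyte markers were lower for 1 of 3, and of 2 heart muscle markers 1 was higher and 1 lower. The longissimus dorsi of Piétrain held both the highest hepatocyte marker sum and the highest level of SLC25A47 among these libraries, 2.44. The part of fibre type, fat, connective tissue or liver RNA in the members' differences was not tested.

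Breeds differed within a tissue by amounts that the design cannot test, since each breed gave 1 library. The members' median SD over breeds on the log2 scale was 0.36 in liver and 0.35 in psoas major, beside 0.26 and 0.30 for all genes at 1 FPKM or more in every library of the tissue. In spleen and lung it was 0.18 and 0.16, beside 0.19 and 0.17. The psoas major of Jinhua was the highest library for 11 of 25 members (44.0%), beside 12.9% of all genes, among them SLC25A3 at 1337, SLC25A4 at 3759, SLC25A20 at 84.1 and SLC25A46 at 34.9. The longissimus dorsi of Piétrain was the lowest for 8 of 24 members (33.3%), beside 8.91% of all genes. In ovary, Meishan was lowest for 12 of 27 members (44.4%, all genes 31.7%) and Jinhua highest for 11 of 27 (40.7%, all genes 27.6%).

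Some members kept the same breed at an extreme from tissue to tissue. SLC25A20 was lowest in Rongchang in 7 of the 8 tissues sampled from that breed, among them kidney at 12.1 beside a tissue median of 33.7. SLC25A17 was highest in Large White in 6 of 9 tissues and lowest in Hampshire in 5, and SLC25A38 was highest in Hampshire in 6. Tibetan wild boar was left out of this count. Over the 26 members at 1 FPKM or more in every remaining library of at least 6 tissues, 5 (19.2%) had the same breed highest in 5 or more tissues and 4 (15.4%) had the same breed lowest. The shares over all genes were 16.3% and 15.7%, so the members were near the background. Tissues of a breed may share an animal, and breed and animal cannot be told apart.

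The mixtures were compared with the mean of the 9 single tissues of the same breed, in the 8 breeds with all of them. By limma, 14 of 32 members were higher in the mixture, beside 20.8% of the 17284 genes tested, and 10 of 32 were lower, beside 39.1%. After quantile normalization the balance turned, with 9 members higher and 16 lower. The members' median difference was 0.04, beside -0.08 for all genes. The higher ones were led by liver and kidney members. SLC25A47 was at 155 ± 96.5 in the mixtures and 77.6 ± 48.4 in the tissue mean, a difference of 0.99 (SE 0.09; adjusted p 9.73e-06), and SLC25A27 (0.81), SLC25A15 (0.76), SLC25A48 (0.75), SLC25A22 (0.68) and SLC25A13 (0.57) followed. The lower ones were led by those of heart and muscle. SLC25A4 was at 353 ± 133 in the mixtures and 915 ± 156 in the tissue mean, a difference of -1.43 (SE 0.13; adjusted p 1.14e-05), with SLC25A12 (-1.13) and SLC25A3 (-0.72) next. SLC25A31 was listed at 0 in all 8 mixtures, below its tissue mean of 0.179 ± 0.0556. It is among the 10 counted as lower, but only ovary libraries reached 1 FPKM, so its entry is a description with no test.

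No member exceeded the highest single tissue of its breed in all 8 mixtures. Of all genes 202 (1.17%) did, so the count of members was near the background. Those genes included neural genes of the marker list. GFAP, the filament protein of astrocytes, averaged 69.7 in mixtures and 1.53 in the highest tissue, SNAP25, a protein of the synapse, 38.9 and 1.67, and SLC17A7, a vesicular glutamate carrier, 17.9 and 0.934. The mixtures' composition is not given, so a member's level there cannot be told apart from the share of each tissue added.

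**Figure D5:**
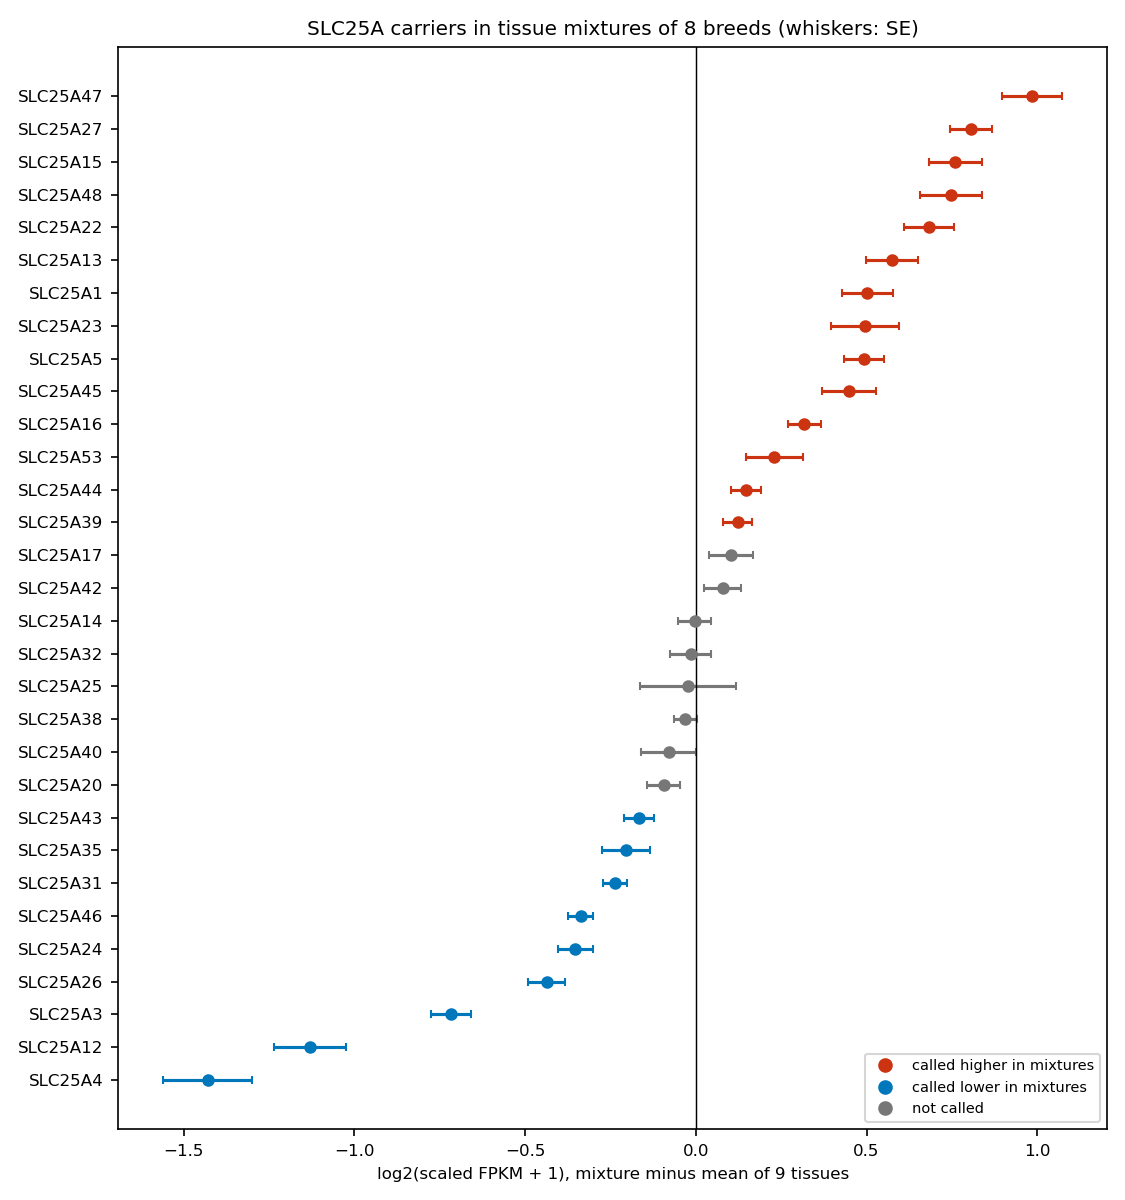
Difference in log2(scaled FPKM + 1) between the mixture and the mean of the 9 single tissues of the same breed (horizontal axis) for the members, all but 1 of which are shown, as the fitted value over 8 breeds with its SE. SLC25A47 lies highest at 0.99 and SLC25A4 lowest at -1.43.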

How the data were processed

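Total RNA of 92 libraries from 10 breeds was extracted with TRIzol, prepared with the Illumina TruSeq kit and sequenced on an Illumina HiSeq, per the labels' protocols. The authors deposited FPKM per gene for each library, made with TopHat and Cufflinks 2.2.1 on Sscrofa10.2, per the submitters' processing notes. The annotation and options are not given in the sources used here. FPKM hold no counts, so absolute depth is unknown and no counting interval can be given. The ratio of shared low FPKM steps gave relative depths of 0.660 to 1.38 over the libraries. No libraries were identical (0 pairs). Gene names came from a table of identifiers, and 11804 of 25322 identifiers had a symbol.

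FPKM were scaled by median ratios over genes at 1 FPKM or more in every library of a fit, anew for each fit. Genes were kept where 3 or more libraries reached 1 FPKM, log2(scaled FPKM + 1) was taken, and limma 3.58.1 (trend and robust options, statmod 1.5.0, R 4.3.3) was fitted over all genes with the breed as a block. The mixture fit used 1 difference per breed. P-values were adjusted by Benjamini-Hochberg over all genes tested. Shares within carrier sets were compared by an exact paired sign-flip permutation test. Scripts were tested on simulated data. Figures were drawn with matplotlib 3.10.9.

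The breed paired the muscles: the labels give each muscle of a breed the same breed name, same-breed deviations correlated at 0.323 to 0.533 over 10 pairs, and 10 of 10 libraries correlated best with their own breed.

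Members named with full values were those called for a tissue class, those called between the muscles (up to 12 in each direction) and those in the carrier sets. From each partner list up to 3 called genes were named, by size of difference. Other members are given by level. The values of 1 member are not reported here, though it enters the counts, medians and sums. Breed and library extremes were chosen after their values were seen. The members, lists and tests were chosen with earlier results of these data known. The alternatives were other scaling, pseudocount, filters, moderation, muscle class, size required, treatment of zeros, no breed block and leaving out each breed. Scaling on genes above 0 or at 5 FPKM or more in every library was added after seeing the data.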

Additional observations from a re-analysis of the deposited data

Results flagged for a closer look

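The check covered 60 groups, 32 of levels over the breeds of a tissue and 28 of differences between the muscles. Of these, 6 held a value whose gap to its neighbour was large for the range of the group by Dixon's criterion. Chance gives about 1 in 20 for normally distributed values. The levels were checked as scaled FPKM without logs, so that rate is only a rough guide for them. SLC25A17 in subcutaneous adipose was 87.0 in Large White, with the other breeds between 36.2 and 62.0. SLC25A32 in liver was 14.7 in Piétrain, with the others between 6.11 and 9.92. SLC25A43 in ovary was 9.09 in Piétrain, with the others between 5.36 and 7.15. SLC25A46 in psoas major was 34.9 in Jinhua, with the others between 19.6 and 25.3. Between the muscles, Piétrain stood apart from the other breeds for a pair of ATP-Mg/phosphate carriers. The log2 difference of SLC25A24 was -1.50 in Piétrain and between -0.39 and 0.32 elsewhere. That of SLC25A25 was 1.30 in Piétrain and between -1.22 and 0.09 elsewhere.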

How the results depend on the processing

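Between 6 and 8 members were called for a tissue class under every alternative except a required log2 difference above 2, which left 1, and the count was 7 with each breed left out in turn. The members behind the count changed with some settings. FPKM as deposited kept 4 of the 7 and added 3 in kidney. Quantile normalization added SLC25A5 and SLC25A48 in kidney. A pseudocount of 0.1, and scaling on genes at 5 FPKM or more, each added SLC25A45 in kidney. The members called higher in psoas major numbered 3 with a filter at 5 FPKM, which took 6 of the called members out of the test (SLC25A13, SLC25A16, SLC25A22, SLC25A27, SLC25A32 and SLC25A40). They numbered 8 to 13 under the others, apart from the fit without the breed block. Without the breed block, that is without the pairing, 4 members were higher and 0 lower at an adjusted p under 0.05 by limma (7 and 0 unadjusted), and over all genes 350 were higher and 313 lower. Without the block SLC25A12, SLC25A13, SLC25A16, SLC25A17, SLC25A20 and SLC25A32 were not called. Leaving out each breed gave 1 to 2 members lower in psoas major, with 2 when Piétrain was left out. Over all genes tested, scaling on genes at 5 FPKM or more gave 2015 higher and 1418 lower in psoas major, and a filter at 5 FPKM 1053 higher and 1397 lower. In the mixtures, quantile normalization gave 9 members higher and 16 lower, and the cause was not tested. Among shares within carrier sets, the SLC25A24 share difference between the muscles ran from -1.23 to 3.35 percentage points when each breed was left out, so its sign rested on single breeds. That of SLC25A31 ran from 0 to 0.000269 (0 without Jinhua), SLC25A4 from 0.165 to 0.290 and SLC25A5 from -0.291 to -0.166. That of SLC25A23 ran from 2.12 to 4.31. The SLC25A4 share and its mirror image, the SLC25A5 share, passed the adjusted threshold without Landrace, at 0.290 and -0.291. The SLC25A23 share did so as well, at 4.28. Single members kept their direction in all 160 values computed for the tissue classes (149 kept their call and 11 did not) and in all 246 for the muscles (228 kept their side of the threshold, 13 lost a call and 5 gained a call). Absolute depth is unknown, so the precision of levels under 1 FPKM, such as those of SLC25A31 and SLC25A53 outside their leading tissue, could not be given.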
